A study of Homo sapiens with 6 samples.

Results

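The TNF superfamily ligands and receptors were taken as every gene of the deposited table whose symbol was TNFSF or TNFRSF followed by a number and at most a letter, together with TNF, LTA and LTB. This gave 35 of 57341 listed genes, of which 14 were ligands and 21 were receptors. RNA was sequenced from H295R, an established adrenocortical carcinoma cell line, and from H295R-PM-Ptc+, the H295R cells that carried the Hedgehog receptor Ptch1 at the plasma membrane and were sorted and then amplified. Each group had 3 libraries, both were grown in the same serum-substituted medium without treatment, and counts per library summed to between 23264403 and 25813247. H295R-PM-Ptc+ is a population sorted from the same line and not an engineered genotype. Nothing in the labels says that the 3 replicates were separate cultures, so that p-values measure the spread between these libraries, which may be technical.

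TNF superfamily ligands are trimeric proteins that sit on the cell surface or are shed from it, and they cluster receptors whose extracellular part is built from cysteine-rich repeats. Receptors with a death domain can recruit caspase 8, while receptors without it bind TRAF adaptors and switch on NF-kB and MAP kinases. Most of the family is known from immune cells, and TNF itself is known to act on the steroid-producing cells of the adrenal cortex.

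The transcript of the sorted protein went against the labels. PTCH1 was counted 441, 559 and 579 times in the libraries labelled H295R and 248, 326 and 319 times in those labelled H295R-PM-Ptc+, so that the groups did not overlap. Its level was 21.3 ± 2.56 counts scaled to library size (CPM, SD, n = 3) and 12.2 ± 2.19 CPM, a log2 fold change of -0.81 (SE 0.147, edgeR adjusted p = 0.0207). In the study's own supplementary table of normalized values each column carried the name of the other group with the same replicate code, and the counts alone do not tell which naming is right. The study also measured Ptch1 and other proteins in both kinds of cells, which bears on the naming and so on every direction given here, but those measurements were not analysed here. All groups below are therefore the libraries as labelled in the deposited table, and every direction would turn if the names were exchanged. Adrenocortical markers were present in both groups: 8 of 9 listed genes passed the filter on low counts, CYP11B1 had at most 3 counts in every library, NR5A1, the steroidogenic master regulator, was at 367 and 351 CPM, and the steroid hydroxylase CYP21A2 was the 1 gene of the list with an edgeR adjusted p under 0.05 (log2 fold change 0.88), beside 3.73% of all tested genes. With the replicate block, STAR (0.41, adjusted p = 0.346 without and 3.91e-06 with the block) and CYP11A1 (-0.25, adjusted p = 0.391 and 0.001) were called as well, beside 22.5% of all tested genes.

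A few receptors made up most of the family's RNA, and most members were absent or barely counted. In all, 15 members passed the filter, which kept 6 ligands and 9 receptors. No fragment was counted in any library for 7 members (TNFSF11, TNFSF12, TNFRSF4, TNFRSF6B, TNFRSF13B, TNFRSF17 and TNFRSF18), which allows up to 3 counts per library, or 0.117 to 0.130 CPM. This limit does not fully cover TNFSF12, TNFRSF6B and TNFRSF13B. Their exons share 29.4%, 100% and 17.3% of their bases with other genes on the same strand, and reads there may have been left uncounted. A further 8 members never had more than 3 counts (TNF, LTA, LTB, TNFSF14, TNFSF15, TNFRSF9, TNFRSF10D and TNFRSF11B), and 5 had more but were too low to be tested (TNFSF13B, TNFRSF8, TNFRSF10A, TNFRSF11A and TNFRSF14). The cytokine that names the family and both lymphotoxins were thus at or below 3 counts in each of the 6 libraries.

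**Figure D1:**
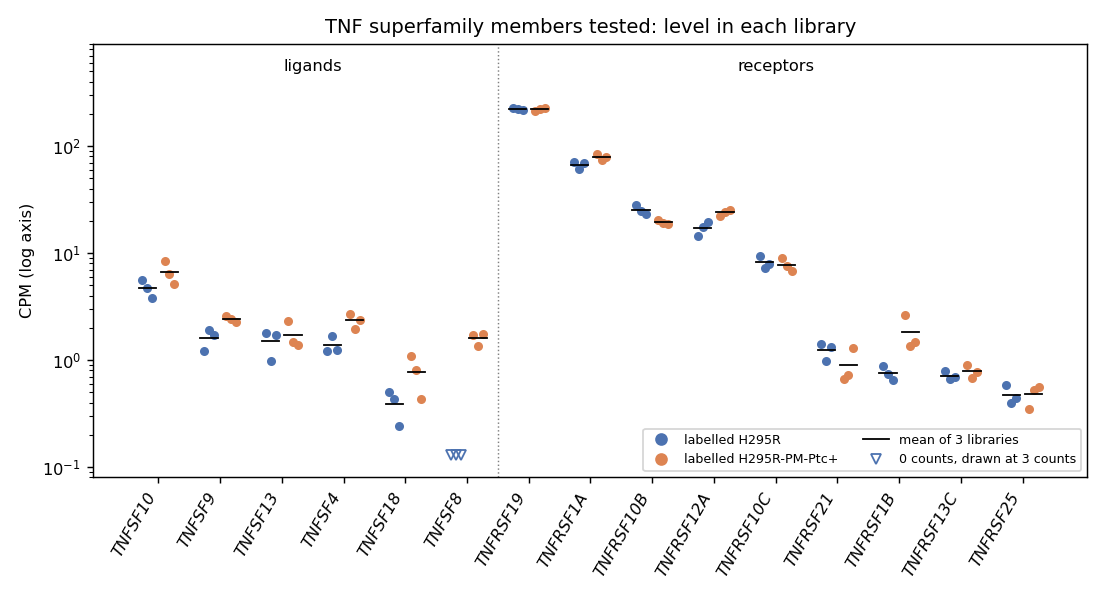
CPM on a log axis of the 15 tested members in each of the 6 libraries, ligands to the left and receptors to the right, with a point per library coloured by the group as labelled and a line at the mean of 3 libraries. The 3 H295R libraries of TNFSF8 held 0 counts and are drawn as open triangles at the level of 3 counts, while TNFRSF19 lies highest in both groups.

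Levels were compared between genes as CPM per kilobase of merged exons (FPKM). TNFRSF19, an orphan receptor also called TROY, was the highest member at 43.3 ± 1.05 FPKM in H295R and 43.5 ± 1.39 FPKM in H295R-PM-Ptc+ (SD, n = 3 each). TNFRSF1A, the death domain receptor for TNF, followed at 16.7 ± 1.21 and 19.7 ± 1.38 FPKM, and TNFRSF12A, the receptor for TWEAK, at 9.30 ± 1.37 and 13.0 ± 0.745 FPKM. The ranges of these 3 receptors did not overlap each other, so that their order was larger than the spread between libraries. TNFRSF10B, a death receptor for TRAIL, was at 4.92 and 3.77 FPKM and its decoy relative TNFRSF10C at 3.12 and 2.97 FPKM. The highest ligand was TNFSF10 (TRAIL), below these 5 receptors at 1.36 ± 0.254 and 1.91 ± 0.495 FPKM, and TNFSF9 came next at 0.969 ± 0.219 and 1.45 ± 0.101 FPKM.

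The comparison of H295R-PM-Ptc+ with H295R asks which transcripts differ between the sorted population and the cells it came from. Of all 16710 tested genes, 3.73% had an edgeR adjusted p under 0.05 (2.42% higher and 1.32% lower in H295R-PM-Ptc+). Of the 15 tested members, 1 did, the ligand TNFSF8. Without adjustment, 8 members were higher and 1 was lower at p under 0.05, where 17.3% of all tested genes were (9.6% higher and 7.67% lower). With the replicate number as a block, again 8 members were higher and 1 was lower at an adjusted p under 0.05, where the background was 22.5% (12.1% higher and 10.4% lower). Libraries did not overlap between groups for 6 members that were higher and 1 that was lower, against 23.5% of all tested genes (12.4% and 11.2%). The log2 fold change was above 0 for 12 members and below 0 for 3, with a median of 0.24 beside 0.0009 over all tested genes. TNFSF8, at 0 in every H295R library, passed the filter only through H295R-PM-Ptc+ and could only be above 0. The other 5 tested ligands had values from 0.22 to 0.99, and the 9 receptors from -0.49 to 1.27. In bulk RNA, a change in the number of cells that carry a transcript and a change in its level per cell cannot be told apart.

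**Figure D2:**
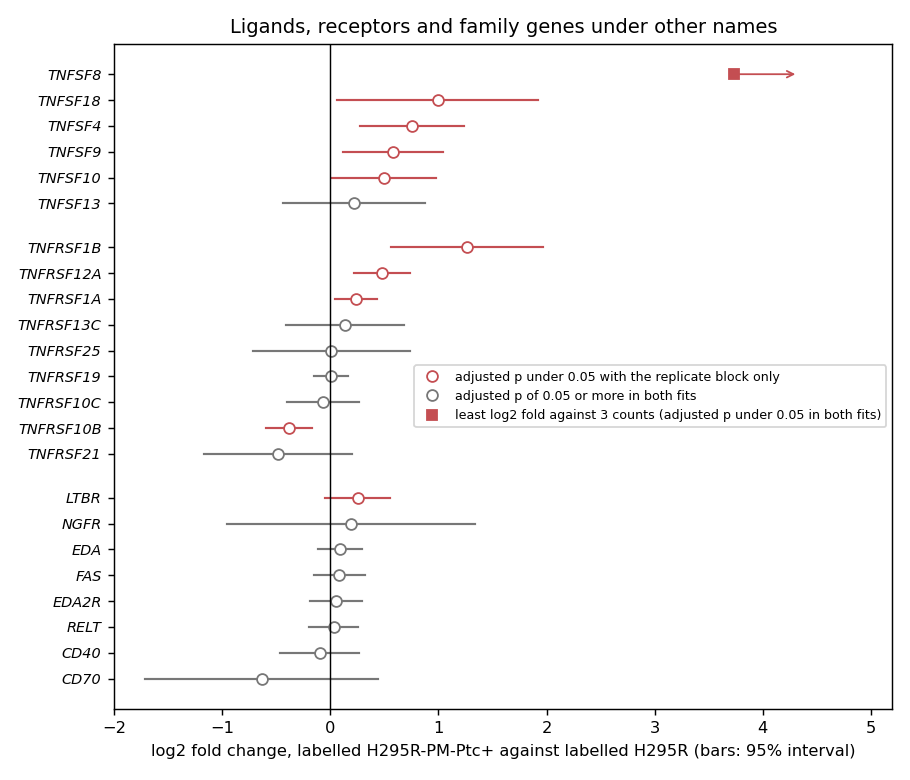
Log2 fold change of the libraries labelled H295R-PM-Ptc+ over those labelled H295R with 95% intervals from edgeR, from top to bottom for the 6 tested ligands, the 9 tested receptors and 8 relatives under other names, with red for an adjusted p under 0.05 with the replicate block. TNFSF8 is drawn at its least log2 fold of 3.73 against 3 counts, the other ligands lie right of 0, and TNFRSF10B is the red receptor left of 0.

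TNFSF8 encodes the CD30 ligand, a membrane protein known from activated lymphocytes. The gene lies on the minus strand of chr9:114893343-114930595 (GRCh38), and its merged annotation has 5 exons. It was counted 0, 0 and 0 times in the libraries labelled H295R and 44, 34 and 41 times in those labelled H295R-PM-Ptc+. The groups thus did not overlap, and the H295R-PM-Ptc+ libraries lay close together. Against the floor of 3 counts per library its CPM was at least 13.3-fold higher, from 0 to 1.62 ± 0.220 CPM (SD, n = 3; edgeR adjusted p = 0.00113). Because only the H295R-PM-Ptc+ libraries brought it past the filter on low counts, its direction was fixed before the test. Per length it stayed low, at 0.557 ± 0.0757 FPKM. Its receptor TNFRSF8 (CD30), which transmits signals through TRAF adaptors, was too low to be tested, with 7, 9 and 7 counts in H295R and 10, 7 and 15 in H295R-PM-Ptc+, and these groups overlapped.

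Markers of other cell types were counted beside this result. Of 12 leukocyte genes, 3 passed the filter and PTPRC, CD3D, MS4A1 and CD68 were at 0 in every library. The summed level of the 12 was 1.46 to 2.05 CPM in H295R and 3.28 to 9.08 CPM in H295R-PM-Ptc+. CD79A, a chain of the B cell receptor, had 11, 11 and 12 counts against 169, 52 and 33 (log2 fold change 2.88, edgeR adjusted p = 0.0409). None of 6 endothelial genes passed the filter, CLDN5 was at 0, and their summed level was 0.551 to 0.670 CPM and 0.782 to 1.04 CPM. The part of such markers in the result was not tested.

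**Figure D3:**
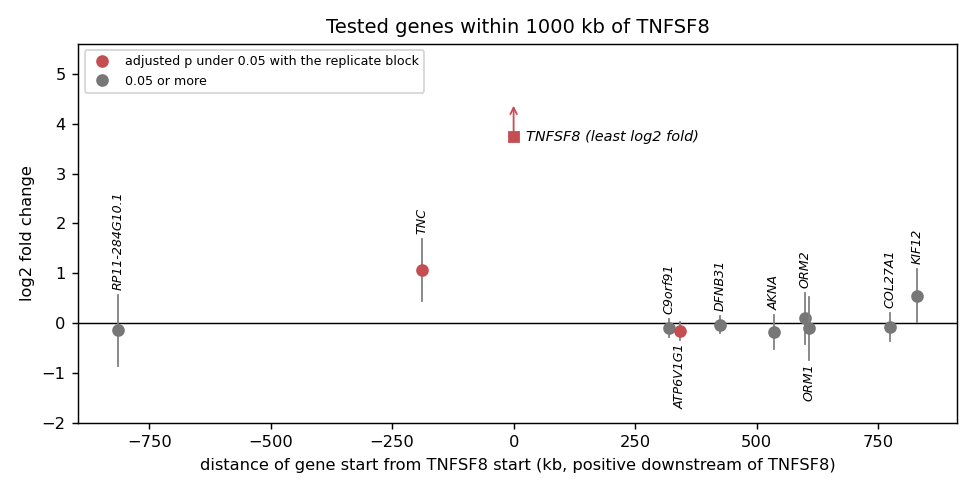
Log2 fold change with 95% intervals of the 10 tested genes that start within 1000 kb of TNFSF8, against the distance of their starts from that of TNFSF8 in kb. TNC alone among them lies above 1, and TNFSF8 is drawn at its least log2 fold.

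Around TNFSF8, 10 other genes within 1000 kb were tested, and their median log2 fold change was -0.09. With edgeR none of them had an adjusted p under 0.05, and 2 did with the replicate block, beside 3.73% and 22.5% of all tested genes. TNC, which encodes the matrix protein tenascin C and starts upstream at -187.7 kb, had 65, 124 and 131 counts in H295R and 158, 260 and 241 in H295R-PM-Ptc+. The groups did not overlap, and the level of TNC was 4.30 ± 1.38 and 9.02 ± 2.46 CPM (log2 fold change 1.06, SE 0.272, edgeR adjusted p = 0.0717, with the replicate block 5.85e-06). For ATP6V1G1 the log2 fold change was -0.16 (adjusted p with the replicate block 0.0146). TNFSF15, the family member next to TNFSF8 on chromosome 9, had 0, 1 and 0 counts in H295R and 1, 3 and 1 in H295R-PM-Ptc+.

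The other tested ligands had smaller differences. TNFSF4, the OX40 ligand, a costimulator of T cells, was counted 29, 43 and 31 times in H295R and 69, 49 and 55 times in H295R-PM-Ptc+. No H295R library reached the lowest H295R-PM-Ptc+ library, with 1.39 ± 0.266 and 2.35 ± 0.365 CPM (log2 fold change 0.76, SE 0.212, edgeR adjusted p = 0.094, with the replicate block 0.0184). TNFSF9, the CD137 ligand, had 29, 49 and 42 counts against 66, 60 and 52, again without overlap, at 1.61 ± 0.365 and 2.41 ± 0.168 CPM (0.58, SE 0.204, adjusted p = 0.181, with the replicate block 0.0463). The receptors of both, TNFRSF4 and TNFRSF9, had at most 3 counts in every library.

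TNFSF18, the ligand of GITR, lies beside TNFSF4 on chromosome 1 and had 12, 11 and 6 counts in H295R and 28, 20 and 10 in H295R-PM-Ptc+. The groups overlapped, although the H295R-PM-Ptc+ library was the higher one in each of the 3 pairs of equal replicate number (log2 fold change 0.99, SE 0.41, edgeR adjusted p = 0.258, with the replicate block 0.0395). TNFSF10 showed the same arrangement, with 133, 121 and 94 counts against 217, 157 and 118, and in both groups replicate 1 was highest and replicate 3 lowest. Its level was 4.71 ± 0.883 and 6.63 ± 1.72 CPM (0.50, SE 0.212, adjusted p = 0.27, with the replicate block 0.00744). Without replicate 1 of H295R-PM-Ptc+ the log2 fold change was 0.27 for TNFSF10 and 0.65 for TNFSF18. TNFSF13 (APRIL), a survival factor of plasma cells, had 43, 25 and 42 counts against 59, 37 and 32 and the groups overlapped (0.22, 95% interval -0.44 to 0.87, adjusted p = 0.777). Its exons share 55.5% of their bases with the readthrough transcript TNFSF12-TNFSF13, which was listed at 0, so that reads of TNFSF13 and TNFSF12 may have been left uncounted, and its receptors TNFRSF13B and TNFRSF17 were at 0. The exons of TNFRSF6B lie wholly within those of RTEL1-TNFRSF6B, and its value of 0 is uncertain for the same reason.

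Among tested receptors, the change of largest size was that of TNFRSF1B, the TNF receptor without a death domain. It was counted 21, 19 and 16 times in H295R and 67, 34 and 34 times in H295R-PM-Ptc+. The groups did not overlap, and replicate 1 of H295R-PM-Ptc+ stood above the others. The level was 0.758 ± 0.116 and 1.82 ± 0.696 CPM, a 2.4-fold difference (log2 fold change 1.27, SE 0.31, edgeR adjusted p = 0.0617, with the replicate block 0.00142), and without that library the log2 fold change was 0.89. TNFRSF1A, which binds the same ligands, had 1682, 1561 and 1712 counts against 2164, 1830 and 1817, without overlap (0.24, SE 0.0864, adjusted p = 0.197, with the replicate block 0.00218). Per length, TNFRSF1A remained far above TNFRSF1B, with 19.7 against 0.483 FPKM in H295R-PM-Ptc+.

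TNFRSF12A, whose product Fn14 binds TRAF adaptors, had 347, 445 and 483 counts in H295R and 573, 607 and 580 in H295R-PM-Ptc+. Every H295R-PM-Ptc+ library lay above every H295R library, at 17.2 ± 2.52 and 24.0 ± 1.38 CPM (log2 fold change 0.48, SE 0.116, edgeR adjusted p = 0.0606, with the replicate block 1.74e-04). Its ligand TNFSF12 (TWEAK) was at 0 throughout, a value that is uncertain because a readthrough transcript shares part of its exons. TNFRSF19 had 5371, 5700 and 5322 counts against 5492, 5571 and 5298, and the groups overlapped. The 95% interval of its log2 fold change was -0.15 to 0.17 (0.01, adjusted p = 0.976), the narrowest of the family.

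The TRAIL receptors lie in a row on chromosome 8. TNFRSF10B, at chr8:23020133-23069179 on the minus strand, was the 1 member that was lower at an adjusted p under 0.05 with the replicate block, with 671, 630 and 574 counts in H295R and 520, 477 and 434 in H295R-PM-Ptc+. The groups did not overlap, at 25.4 ± 2.48 and 19.4 ± 0.824 CPM (log2 fold change -0.38, SE 0.0948, edgeR adjusted p = 0.063, with the replicate block 6.81e-04). Its neighbour TNFRSF10C, which lacks a death domain, had 224, 186 and 194 counts against 229, 189 and 158 with overlap (-0.07, 95% interval -0.40 to 0.26, adjusted p = 0.879). TNFRSF10A had 5, 5 and 4 counts against 6, 7 and 6, and TNFRSF10D never more than 3. These 4 genes are close paralogs and only the primary alignment of multiply mapped reads was counted, so that reads may have been split between them.

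Remaining receptors were low. TNFRSF14, the receptor of LIGHT, had 4, 4 and 4 counts in H295R and 16, 11 and 9 in H295R-PM-Ptc+ and did not overlap between groups, but was below the filter (adjusted p without a filter 0.0717). TNFRSF21, a death domain receptor, had 34, 25 and 33 counts against 17, 18 and 30 (log2 fold change -0.49, 95% interval -1.17 to 0.20, edgeR adjusted p = 0.47). TNFRSF13C, the BAFF receptor, had 19, 17 and 17 counts against 23, 17 and 18 (0.14, adjusted p = 0.857), and TNFRSF25 had 14, 10 and 11 against 9, 13 and 13 (0.01, adjusted p = 0.994). In these 3 receptors the groups overlapped. TNFRSF11A (RANK) had 8, 5 and 8 counts against 7, 13 and 14, and TNFSF13B (BAFF) had 8, 9 and 5 against 5, 11 and 4, both below the filter.

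**Figure D4:**
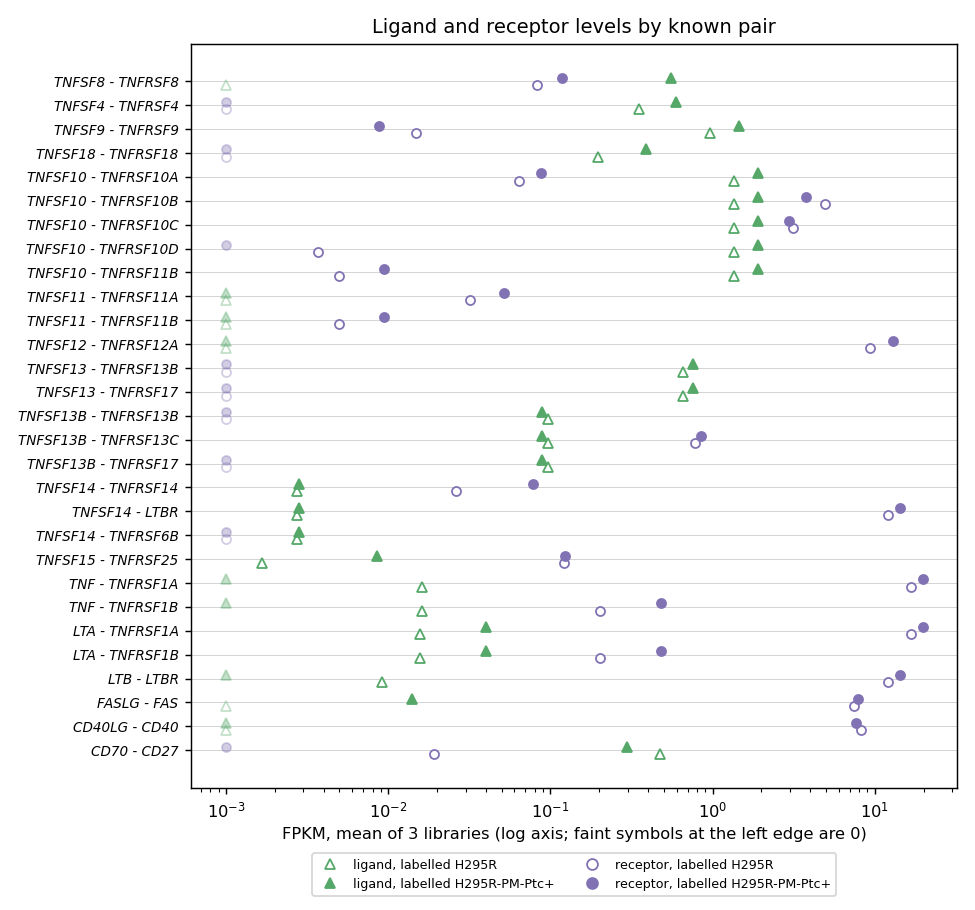
Mean FPKM of 3 libraries on a log axis for the ligand (triangles) and the receptor (circles) of each of the 29 pairs, open for H295R and filled for H295R-PM-Ptc+ as labelled, with faint symbols at the left edge for a mean of 0. In the pairs of TNF, LTA and LTB the ligand lies far left of the receptor, and in those of TNFSF4, TNFSF9 and TNFSF18 far right of it.

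Few pairs had both partners at a testable level. Of 29 known ligand and receptor pairs, including relatives under other names, both partners were tested in 2, TNFSF10 with TNFRSF10B and TNFSF10 with TNFRSF10C. Only the receptor was tested in 11 pairs, among them TNF with TNFRSF1A and TNFSF12 with TNFRSF12A. Only the ligand was tested in 10, among them TNFSF8 with TNFRSF8 and TNFSF4 with TNFRSF4, and neither in 6. In the TRAIL pair with both partners called under the replicate block, the ligand TNFSF10 was higher in H295R-PM-Ptc+ and the receptor TNFRSF10B lower.

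Promoters were read where RefSeq gave a start (GRCh38.p14), which was so for 24 of the 35 members and for TNFAIP3, described below. The 250 bases before the start are printed for TNFRSF1B, TNFSF4 and TNFSF9, the tested members with an entry and no overlap between groups whose log2 fold changes were largest, and for TNFAIP3, so that their base composition and motifs can be compared. Capitals mark the searched motifs on either strand. TNFRSF1B lies at chr1:12166741-12166990 (plus strand, 72.4% GC, 22 CpG), TNFSF4 at chr1:173205533-173205782 (minus strand, 48% GC, 5 CpG), TNFSF9 at chr19:6530776-6531025 (plus strand, 64.4% GC, 23 CpG) and TNFAIP3 at chr6:137867009-137867258 (plus strand, 74% GC, 29 CpG).
TNFRSF1B: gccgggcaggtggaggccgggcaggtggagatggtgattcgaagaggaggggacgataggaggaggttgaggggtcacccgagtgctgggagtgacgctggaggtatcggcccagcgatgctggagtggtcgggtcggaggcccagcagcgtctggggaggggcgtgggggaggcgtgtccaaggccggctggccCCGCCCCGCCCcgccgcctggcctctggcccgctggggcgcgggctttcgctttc
TNFSF4: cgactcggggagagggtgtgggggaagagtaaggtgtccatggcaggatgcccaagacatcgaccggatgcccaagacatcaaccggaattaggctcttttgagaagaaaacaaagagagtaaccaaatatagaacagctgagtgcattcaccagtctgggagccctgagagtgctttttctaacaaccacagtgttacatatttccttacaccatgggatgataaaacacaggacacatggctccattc
TNFSF9: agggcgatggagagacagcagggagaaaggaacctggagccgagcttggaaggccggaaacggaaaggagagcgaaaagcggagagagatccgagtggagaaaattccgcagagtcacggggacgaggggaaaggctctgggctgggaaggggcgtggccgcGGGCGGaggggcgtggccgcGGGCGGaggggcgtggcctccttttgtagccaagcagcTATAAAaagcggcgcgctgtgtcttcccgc
TNFAIP3: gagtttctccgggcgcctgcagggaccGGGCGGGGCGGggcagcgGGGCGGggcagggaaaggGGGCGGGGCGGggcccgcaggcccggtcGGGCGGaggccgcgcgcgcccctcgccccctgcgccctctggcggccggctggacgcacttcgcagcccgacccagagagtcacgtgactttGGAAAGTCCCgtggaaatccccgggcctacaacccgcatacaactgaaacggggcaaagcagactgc

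TNFRSF1B held a pair of overlapping GC boxes (GGGCGG), at -55 and -50 from the start. TNFSF9 held a TATA box (TATAAA) at -30 and GC boxes at -88 and -68, and TNFSF4 held none of the 8 motifs searched. TNFAIP3 held 6 GC boxes, some of them overlapping, and an NF-kB consensus site at -67. Of 35116 promoters of this length, 42.6% held the GC box, 10.7% the TATA box and 0.527% this form of the NF-kB site. Among members, this form was found in TNFRSF9 and LTB, both at most 3 counts here. The GLI site of the Hedgehog pathway (GACCACCCA, 0.199% of promoters) was found in none of the 24. The other motifs were the CCAAT box (CCAAT, 32%), the AP-1 site (TGACTCA, 4.2%), the cyclic AMP element (TGACGTCA, 1.65%) and a nuclear receptor half-site (AGGTCA, 12.1%). A match is a description of the letters and not a bound site.

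Among relatives that carry other names, no difference passed the test without the block. Of 12 such genes, 8 were tested and none had an edgeR adjusted p under 0.05, nor an unadjusted p under 0.05, beside 3.73% and 17.3% of all tested genes, and DESeq2 called 0. With the replicate block 1 was called, beside 22.5% of all tested genes. This was LTBR, the lymphotoxin beta receptor, with 2173, 1590 and 1781 counts in H295R and 2506, 2080 and 2022 in H295R-PM-Ptc+. The groups did overlap, at 75.2 ± 14.4 and 89.7 ± 7.47 CPM (log2 fold change 0.25, edgeR adjusted p = 0.378, with the replicate block 0.00287). Without H295R replicate 1 the fit without the block also called 1 gene of this list. FAS, the receptor of the death pathway that bears its name, was at 7.45 and 7.89 FPKM (0.08, 95% interval -0.15 to 0.32), and CD40 at 8.18 and 7.62 FPKM. CD70 had the value furthest below 0 (-0.64, 95% interval -1.72 to 0.44), and FASLG, CD40LG, CD27 and EDAR had at most 1 count in any library.

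Downstream of the receptors, nearly the whole machinery was present. Of 45 listed signalling genes, 44 were tested, and RIPK3, the kinase of necroptosis, was at 0 in every library. The log2 fold change was above 0 for 29 and below 0 for 15, with a median of 0.05. At an edgeR adjusted p under 0.05, 1 was lower and none higher, against 3.73% of all tested genes, and without adjustment 4 were higher and 5 lower, against 17.3%. TNFAIP3, which encodes the ubiquitin-editing inhibitor A20 and lies at chr6:137867188-137883312 on the plus strand, had 3273, 2857 and 2838 counts in H295R and 2402, 2143 and 1906 in H295R-PM-Ptc+. Every H295R library lay above every H295R-PM-Ptc+ library, and the level fell from 121 ± 13.5 to 87.5 ± 5.93 CPM (log2 fold change -0.47, SE 0.0973, edgeR adjusted p = 0.0345, with the replicate block 3.71e-06). Its call was lost without H295R replicate 2 (adjusted p = 0.0608) or replicate 3 (0.0855) and without H295R-PM-Ptc+ replicate 2 (0.136) or replicate 3 (0.15). On leaving out each library in turn, its log2 fold change lay between -0.53 and -0.38.

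**Figure D5:**
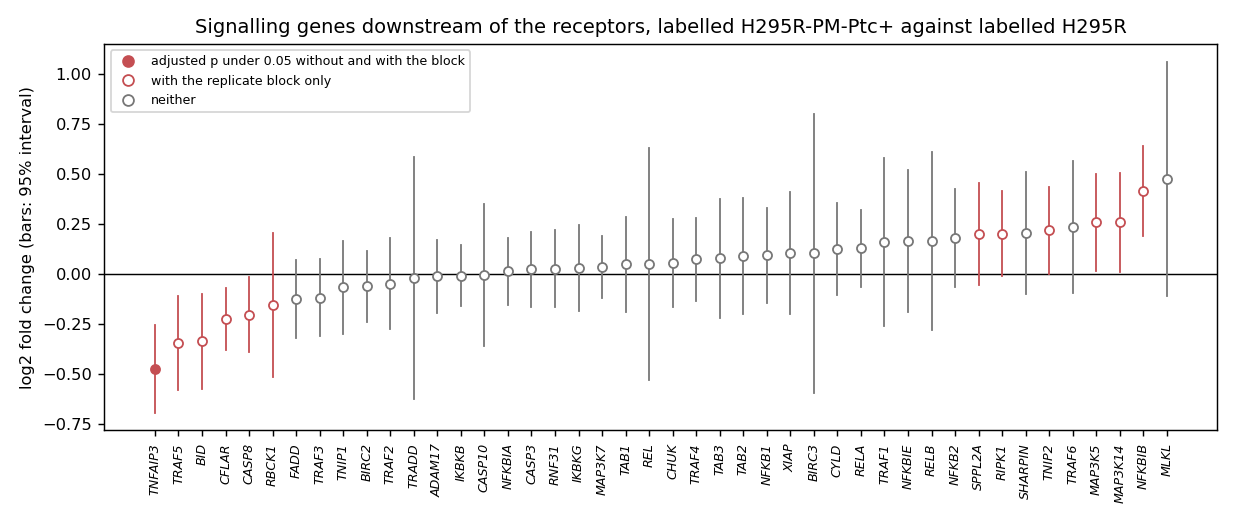
Log2 fold change with 95% intervals of the 44 tested signalling genes, H295R-PM-Ptc+ over H295R as labelled, sorted by value, with red for an adjusted p under 0.05 with the replicate block and a filled point where the fit without it also called the gene. TNFAIP3 lies lowest at -0.47 and MLKL highest at 0.48.

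With the replicate block, 6 signalling genes were higher and 6 lower, against a background of 22.5%. The higher genes were the kinases RIPK1, MAP3K14 and MAP3K5, the NF-kB inhibitors NFKBIB and TNIP2, and the protease SPPL2A, with log2 fold changes from 0.20 to 0.41. NFKBIB had 314, 320 and 376 counts in H295R and 467, 443 and 427 in H295R-PM-Ptc+, without overlap (0.41, edgeR adjusted p = 0.0579, with the replicate block 0.00119). The lower genes were TNFAIP3, TRAF5, CASP8, CFLAR, BID and RBCK1, with values from -0.47 to -0.15. Among them were the initiator caspase of death receptors (CASP8, -0.20, adjusted p with the replicate block 0.0229), its inhibitor (CFLAR, -0.22, 0.00389) and its substrate (BID, -0.34, 2.46e-04). MLKL, the executioner of necroptosis, had the value furthest above 0 (0.48, 95% interval -0.11 to 1.06, edgeR adjusted p = 0.4), with 38, 33 and 29 counts against 65, 36 and 38.

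NF-kB target genes were mostly low in both groups. Of 20 listed symbols, 19 were in the table and 9 were tested. TNFAIP3, which is also in the signalling list, was the 1 with an edgeR adjusted p under 0.05, and it was lower in H295R-PM-Ptc+, beside 3.73% of all tested genes called in either direction. BCL3, an atypical relative of the NF-kB inhibitors, had 249, 249 and 260 counts against 356, 286 and 304, without overlap. It was higher with the replicate block (log2 fold change 0.33, adjusted p = 0.0137), which called 2 of the 9 beside 22.5% of all tested genes. Of the 9 tested, 6 had a log2 fold change above 0 and 3 below, with a median of 0.10. CCL2 had 1, 8 and 3 counts against 12, 17 and 8. TNFAIP2 had 4, 8 and 8 against 12, 10 and 16, and CXCL8 had 4, 3 and 3 against 7, 7 and 4. All were below the filter, and their CPM was higher in H295R-PM-Ptc+ without overlap (edgeR adjusted p without a filter 0.096, 0.382 and 0.681). CXCL1 and IL6 were at 0 in every library.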

How the data were processed

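RNA of 3 H295R and 3 H295R-PM-Ptc+ libraries was sequenced as paired reads. Per the submitters' processing notes and the study's methods, the authors used STAR 2.4.0a for alignment to hg38 and featureCounts (Subread 1.5.0-p3 in the processing notes, another version in the methods) for stranded counting by gene name, in which a read with several alignments counted at its primary one. The values deposited by the authors are raw counts, not normalized or filtered. Position and merged exon length were taken from the exon coordinates deposited with the counts. Gene names joined these to RefSeq (GRCh38.p14) for the promoters only.

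Groups were taken from the labels. Counts were filtered with filterByExpr, scaled with TMM and tested with edgeR 4.0.16 (quasi-likelihood, two-sided, group only, Benjamini-Hochberg over 16710 genes, threshold 0.05). The study's own test, DESeq2, was an alternative. CPM used TMM-scaled totals. An exact permutation test of 3 against 3 libraries cannot go below p = 0.1. Limits from a count of 0 cover counting error only. The test was checked on simulated data.

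Same-numbered replicates share a code in the labels, and across genes their departures from the group mean had correlations of 0.497, 0.307 and 0.228, against -0.352 to 0.150 for others. They were therefore read as pairs, and the value with the replicate block is given where it changed a call. The family, its lists and the tests were chosen with earlier results of these data known. Members were named if p was under 0.05 before adjustment or after it with the replicate block, if the fold was over 2, or if they were among the 5 highest ligands or receptors or partners of such members. From the lists, called genes and the extremes were named, and genes called only with the block were added after their values were seen.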

Additional observations from a re-analysis of the deposited data

How the results depend on the processing

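All 12 alternatives were run. The 1 called member (TNFSF8) became 4 with DESeq2 and 4 without the filter on low counts (TNFRSF1B, TNFRSF10B, TNFRSF12A and TNFSF8 in both), 9 with the replicate block, and 0 of 12 tested members when at least 10 counts were required in every library, a rule that removes TNFSF8 by construction (7 had an unadjusted edgeR p under 0.05). Leaving out each library in turn gave 1 throughout, TNFSF8, which passed the filter only through H295R-PM-Ptc+, so that this count says nothing on the other members. For relatives under other names, 0 became 1 with the replicate block and 0 to 1 on leaving out a library. For signalling genes, 1 became 2 with DESeq2, 2 without the filter, 12 with the replicate block and 0 to 1 on leaving out a library. For NF-kB targets, 1 became 2 with the replicate block and 0 to 1 on leaving out a library. Over all genes, 624 became 838 with DESeq2, 479 with at least 10 counts in every library, 1111 without the filter, 3758 with the replicate block and 219 to 810 on leaving out a library. Of 154 values for 13 named genes, 130 kept direction and side of the threshold, 14 passed it newly, 4 lost it (TNFAIP3) and 6 turned sign. On leaving out each library the log2 fold change of TNFRSF10C ranged from -0.19 to 0.040, that of TNFRSF19 from -0.024 to 0.025 and that of TNFSF13 from -0.059 to 0.37, none of them called. The replicate block changed no call of the family, its relatives or the signalling and target lists other than those given in the text. The causes were not tested.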
